A study of Mus musculus with 4 samples.

Results

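The 10 glycolysis enzyme genes, listed as Hk1, Pfkl, Pfkp, Aldoa, Tpi1, Pgk1, Pgam1, Eno1, Ldha and Pgm1, were followed in the cumulus cells (CCs) that had surrounded mouse antral oocytes. The members were every probe of the array whose symbol in the deposited signal table is one of these 10 names, which gave 14 probes of 9 symbols among the 25697 probes measured. The expression of NSN-CCs was compared with that of SN-CCs, 2 pools of each, with 1 Illumina mouse-8 BeadChip per pool. The chromatin of the oocyte, stained with Hoechst, sorted the cells: NSN-CCs came from oocytes whose nucleolus had no chromatin ring, which are developmentally incompetent, and SN-CCs from oocytes with that ring, which are competent. All 4 pools were from B6C3F1 females, with no genetic alteration given, 6 weeks old by the labels, that had been primed with folligon, a gonadotropin that stimulates follicle growth. Each pool joined CCs of many complexes and animals, so the spread between pools is not the spread between mice, and the p-values below measure only the spread between these pools.

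Glycolysis turns glucose into pyruvate. The mouse oocyte uses glucose poorly and depends on pyruvate from the CCs, and in mouse the oocyte in turn promotes glycolysis in its CCs through secreted factors such as GDF9, BMP15 and fibroblast growth factors. Within the pathway, hexokinase traps glucose in the cell, phosphofructokinase takes the committing step, aldolase and triosephosphate isomerase yield the triose phosphates, and phosphoglycerate kinase, phosphoglycerate mutase and enolase lead on towards pyruvate. Lactate dehydrogenase interconverts pyruvate and lactate, and phosphoglucomutase joins the pathway to glycogen.

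The symbols in the table were those of the design of the array, and for 2 of the genes they differ from current ones. Ldha was filed under the older symbol LDH1 (ILMN_1257965). The probe filed as PGM1 (ILMN_2628578) is now annotated to Pgm2 on chromosome 5, while the gene now called Pgm1, on chromosome 4, was filed as PGM2 (ILMN_2788673). Both names are reported for these genes, which brings the set to 16 probes, 14 by symbol in the table and 2 by current annotation. The probe filed as ENO1 (ILMN_2958159) was not listed in the annotation used and is named from the table only.

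The labels give the tissue as oocytes, whereas the titles and source names say CCs. Of 12 cumulus and granulosa markers, 10 were above the background limit on all 4 arrays, with a summed signal of 173150 and 166210 in NSN-CCs, against 176450 and 115610 in SN-CCs. Most of the lower sum in SN-CCs replicate 2 was Inha (46056 and 3760 in SN-CCs), named after its values were seen. Of the 12, 5 had a signal there at most 0.5 times that of SN-CCs replicate 1. Cyp19a1, Inhba and Amhr2 were instead higher in SN-CCs replicate 2 than in replicate 1. A probe is called above background where its signal exceeds the 95th percentile of 1371 chemosensory receptor probes on the same array, a limit of 116 to 120 arbitrary units. Of 16 oocyte markers, 9 were above the limit on all arrays and 2, Zp2 and Ddx4, on none, and their summed signal was 3396 and 3332 in NSN-CCs, against 3958 and 3974 in SN-CCs. Erythroid markers summed to 15680 and 16297 in NSN-CCs, against 13737 and 9520 in SN-CCs, and 4 of 8 were above the limit on all arrays. Most of that sum was Hba-a1, with 14494 and 15008 in NSN-CCs, against 12295 and 7965 in SN-CCs, while 6 of the 8 erythroid markers had a log2 fold change below 0 (NSN-CCs minus SN-CCs). Theca and stroma markers, 8 of 12 above the limit on all arrays, summed to 8294 and 8239 in NSN-CCs, against 7770 and 11686 in SN-CCs. In pooled cells, fewer cells of a type and less RNA per cell cannot be told apart, and the part of these markers in the results below was not tested. The limit was exceeded by 13536 and 13712 probes in NSN-CCs, against 13642 and 11729 in SN-CCs, so SN-CCs replicate 2 stood apart.

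No glycolysis enzyme probe passed limma's test at an adjusted p of 0.05, and neither did any of the 25697 probes (0.0% called). The clearest differences were those of Pgm1, Ldha and 1 probe of Tpi1, for which both pools of NSN-CCs lay below both pools of SN-CCs. Pfkp, Eno1 and Pgam1 instead had a single low value, in SN-CCs replicate 2. At an unadjusted p under 0.05, 1 of the 16 probes was lower in NSN-CCs (Pgm1) and 0 were higher, against 2.02% lower and 1.09% higher of all probes, and 4.33% lower of the 10589 probes that exceeded the limit on every array. For a single probe, an exact two-sided permutation test of 2 pools against 2 cannot give a p below 0.333. For that reason limma, which draws on the spread of all probes, was used.

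**Figure D1:**
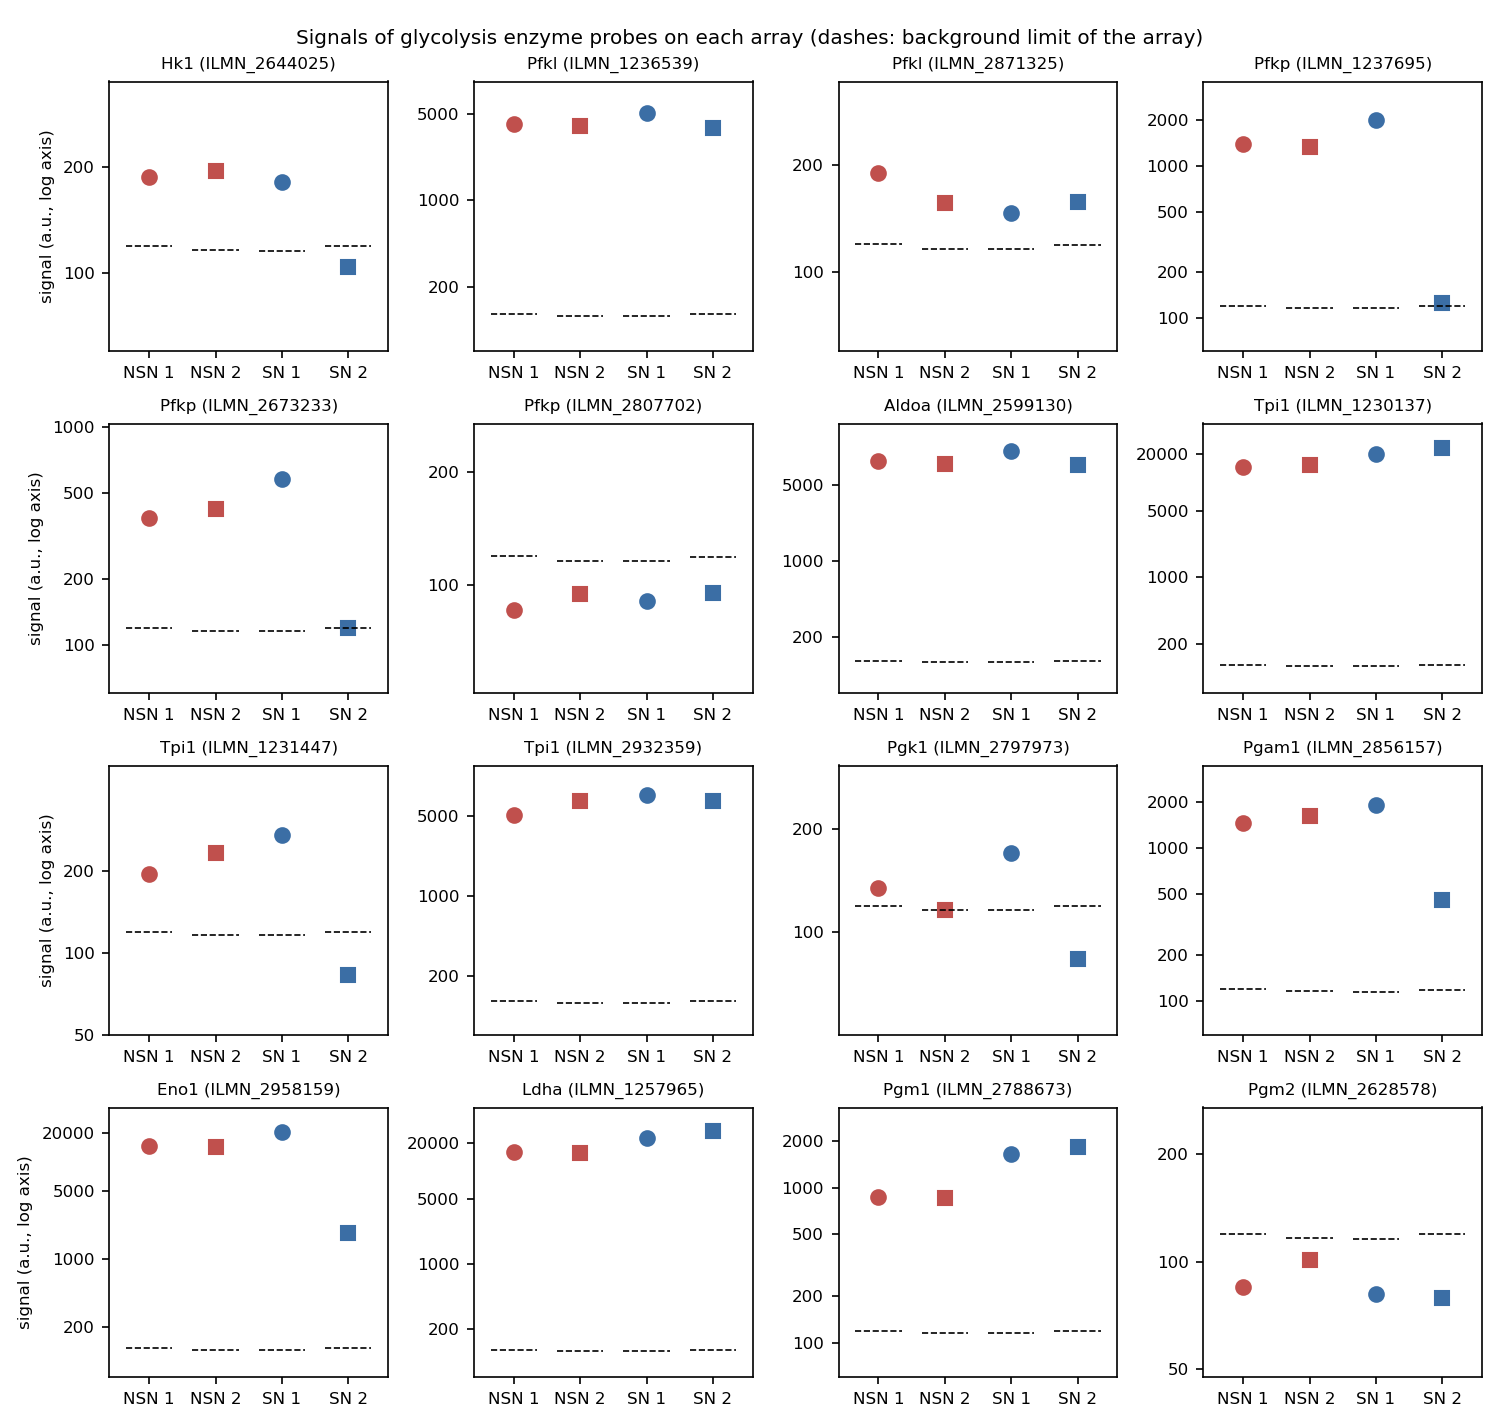
Signal (arbitrary units, log axis) of each of the 16 glycolysis enzyme probes in NSN-CCs (red) and SN-CCs (blue), replicate 1 as circles and replicate 2 as squares, with the background limit of each array as a dashed line. Pgm1 and Ldha were lower on both NSN-CCs arrays, while the SN-CCs replicate 2 square falls away from the other points for Pfkp, Eno1 and Pgam1.

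Pgm1, the phosphoglucomutase that interconverts the glucose phosphates released from and stored in glycogen, had signals of 866 and 861 in NSN-CCs, against 1657 and 1824 in SN-CCs (ILMN_2788673). The groups did not overlap, and the NSN-CCs pools lay closer to each other than the SN-CCs pools did. On the normalized log2 scale Pgm1 averaged 9.70 ± 0.014 in NSN-CCs and 10.71 ± 0.21 in SN-CCs (SD, n = 2 each). The log2 fold change, taken as NSN-CCs minus SN-CCs (here log2 FC), was -1.01 with a standard error (SE) of 0.17 and a 95% confidence interval of -1.46 to -0.56, a signal 2.01 times higher in SN-CCs. Its unadjusted p in limma was 0.0030, and after Benjamini-Hochberg adjustment over all probes the limma adjusted p was 0.81. Without SN-CCs replicate 2 the log2 FC was -0.86. The Pgm2 probe filed as PGM1 had 85.0 and 101 in NSN-CCs, against 80.9 and 79.0 in SN-CCs, below the limit on every array, so no fold is given.

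Ldha, the lactate dehydrogenase subunit that prevails in glycolytic tissues, had 16048 and 15911 in NSN-CCs, against 23085 and 27057 in SN-CCs (ILMN_1257965). Both NSN-CCs pools were lower than both SN-CCs pools. The log2 FC of Ldha was -0.43 with an SE of 0.16 and an interval of -0.88 to 0.011, a signal 1.35 times higher in SN-CCs on the normalized scale, and the limma adjusted p was 0.81. Without SN-CCs replicate 2 the log2 FC of Ldha was -0.29.

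Tpi1, the isomerase that interconverts the triose phosphates, had 3 probes that did not move together. The brightest (ILMN_1230137) had 14426 and 15369 in NSN-CCs, against 19828 and 23178 in SN-CCs, with no overlap and a log2 FC of -0.30 (SE 0.15, limma adjusted p 0.81). Without SN-CCs replicate 2 its log2 FC was -0.20. A further bright probe (ILMN_2932359) had 5131 and 6855 in NSN-CCs, against 7746 and 6816 in SN-CCs, where the groups overlapped and the log2 FC was -0.07 (SE 0.21). The dim probe (ILMN_1231447) had 195 and 232 in NSN-CCs, against 269.8 and 83.1 in SN-CCs, where SN-CCs replicate 2 was below the limit, and its log2 FC was 0.59 (SE 0.62). Which transcripts of Tpi1 the 3 probes read was not examined here. The separated probes of Pgm1, Ldha and Tpi1 were 3 of the 11 enzyme probes above the limit on all arrays, while both NSN-CCs pools were below both SN-CCs pools for 22.2% of all probes and 28.0% of those above the limit on all arrays, so the share among the enzymes was near the background.

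The sequences before the start sites of these 3 genes are shown because each had a bright probe that was lower in both pools of NSN-CCs than in either pool of SN-CCs. Each is the 250 bases upstream of a RefSeq transcript start on GRCm38.p6, read on the strand of the gene, with capitals marking ACGTG or its reverse complement CACGT, a form of the core that hypoxia-inducible factors recognise. Where both overlap they make CACGTG, the E-box bound by MYC and related factors, which counts as 2 matches.
Ldha, chr7:46845554-46845803, plus strand: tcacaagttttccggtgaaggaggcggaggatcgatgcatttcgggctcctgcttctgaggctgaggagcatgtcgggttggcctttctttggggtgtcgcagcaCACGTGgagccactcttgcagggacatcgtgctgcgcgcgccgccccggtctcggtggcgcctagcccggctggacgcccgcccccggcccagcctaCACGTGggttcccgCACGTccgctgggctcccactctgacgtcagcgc
Pgm1, chr4:99929201-99929450, plus strand: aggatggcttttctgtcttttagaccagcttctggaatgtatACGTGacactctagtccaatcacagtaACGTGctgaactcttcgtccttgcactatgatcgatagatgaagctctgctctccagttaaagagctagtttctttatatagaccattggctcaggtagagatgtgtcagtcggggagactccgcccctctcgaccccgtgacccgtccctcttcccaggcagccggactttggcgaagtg
Tpi1, chr6:124814159-124814408, minus strand: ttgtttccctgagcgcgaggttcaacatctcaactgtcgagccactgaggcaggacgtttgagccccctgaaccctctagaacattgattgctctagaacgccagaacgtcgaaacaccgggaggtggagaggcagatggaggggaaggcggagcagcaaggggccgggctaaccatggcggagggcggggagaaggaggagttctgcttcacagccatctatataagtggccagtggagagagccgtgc
The Ldha window held 5 matches, including 2 of CACGTG, that of Pgm1 held 2, and that of Tpi1 held 0. Ldha has a further start site, whose window held 0. Among the other enzymes, the windows of Pgk1 held 2 matches, those of Pgam1 and Pgm2 held 1 each, Aldoa held 1 at 2 of its 3 start sites, and Eno1, Hk1, Pfkl and Pfkp held 0. A match was found in 7 of 17 windows of the enzymes (41.2%), against 16.6% of 32851 windows of all genes, and CACGTG in 6.02% of them. Windows of the same gene can overlap, as the 2 Aldoa windows with a match did. Counted by gene, 6 of 11 enzyme genes had a match in some window (54.5%), against 18.5% of 27025 genes. These are matches of letters in a short window, with no measurement of binding.

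Pfkp, the platelet-type phosphofructokinase, had 1394 and 1339 in NSN-CCs, against 2008 and 125 in SN-CCs (ILMN_1237695). Its SN-CCs values lay on both sides of the NSN-CCs values and differed 16.1-fold from each other. The log2 FC of Pfkp was 1.51 with an SE of 1.33, and -0.42 without SN-CCs replicate 2. The same order was seen with ILMN_2673233, which had 385 and 419 in NSN-CCs, against 577.5 and 119.6 in SN-CCs, a log2 FC of 0.60 (SE 0.74) and of -0.46 without SN-CCs replicate 2. The remaining Pfkp probe (ILMN_2807702) had 85.8 and 95.03 in NSN-CCs, against 90.7 and 95.5 in SN-CCs, below the limit on every array.

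Eno1, the enolase of most tissues, which makes phosphoenolpyruvate, had 14797 and 14341 in NSN-CCs, against 20345 and 1834 in SN-CCs. SN-CCs replicate 1 was above both NSN-CCs pools and SN-CCs replicate 2 below them, 11.1-fold apart. The log2 FC of Eno1 was 1.42 (SE 1.16, interval -1.72 to 4.57), and -0.25 without SN-CCs replicate 2. Pgam1, the phosphoglycerate mutase of non-muscle tissues, had 1455 and 1603 in NSN-CCs, against 1914 and 455 in SN-CCs. The SN-CCs pools of Pgam1 again lay on both sides of the NSN-CCs pools, and the log2 FC was 0.65 (SE 0.58), and -0.18 without SN-CCs replicate 2.

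Among the 14 enzyme probes above the limit in SN-CCs replicate 1, 6 had a signal in SN-CCs replicate 2 at most 0.5 times that of replicate 1, those of Pfkp (2 probes), Eno1, Pgam1, Pgk1 and the dim Tpi1 probe. Of all 13642 probes above the limit in SN-CCs replicate 1, 17.6% were so low in replicate 2. Between the NSN-CCs pools 0 of the 14 enzyme probes and 0 of 13536 probes differed in this way. The SD between pools of the 14 enzyme probes had a median of 0.071 on the log2 scale in NSN-CCs and 0.48 in SN-CCs. The enzymes that were low in SN-CCs replicate 2 were so on an array where fewer probes exceeded the limit, and the cause was not tested.

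**Figure D2:**
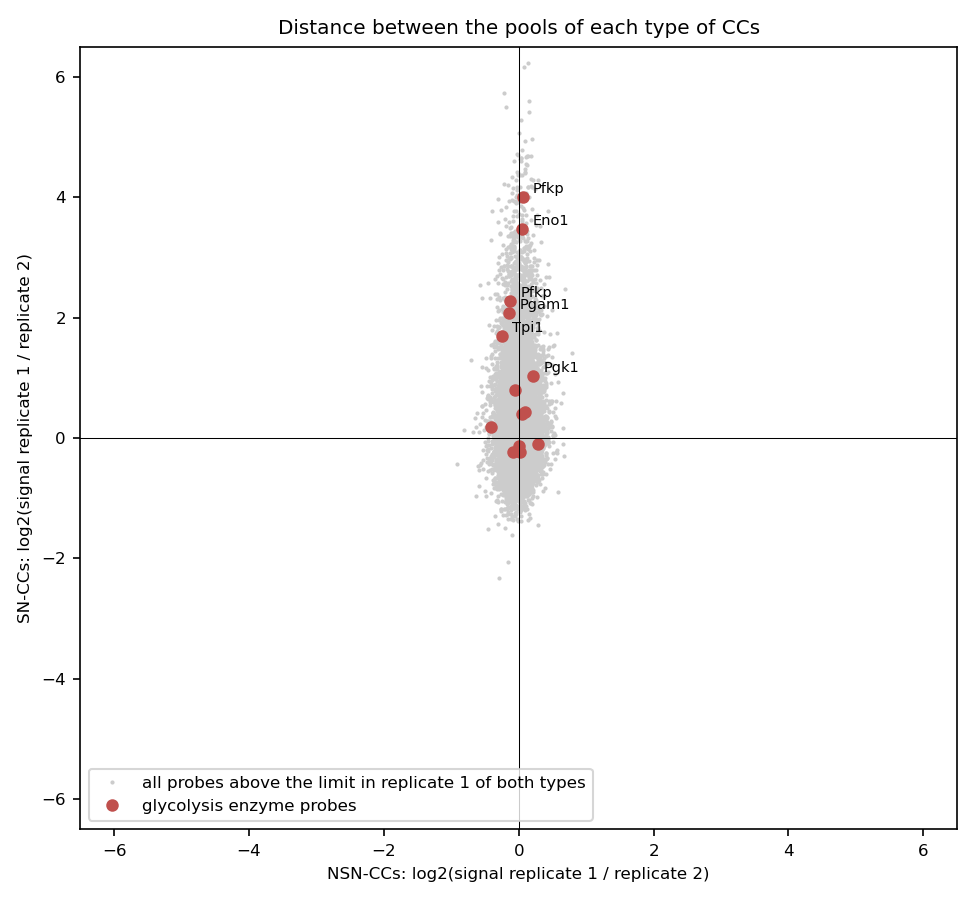
Log2 ratio of the signal in replicate 1 over replicate 2 in NSN-CCs (horizontal) and in SN-CCs (vertical) for all probes above the background limit in replicate 1 of both types (grey) and the 14 enzyme probes among them (red), with the 6 that were at most 0.5 times as bright in SN-CCs replicate 2 named. None of the enzyme probes differed that much between the NSN-CCs pools, while Pfkp and Eno1 differed 16.1-fold and 11.1-fold between the SN-CCs pools.

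Hk1, the hexokinase of most tissues, had 187 and 194 in NSN-CCs, against 181 and 104 in SN-CCs (ILMN_2644025). Both NSN-CCs pools were above both SN-CCs pools, though SN-CCs replicate 1 by a small margin, and SN-CCs replicate 2 was below the background limit. The log2 FC of Hk1 was 0.48 (SE 0.29) and 0.11 without SN-CCs replicate 2. Among the 14 enzyme probes above the limit on some array it was the 1 with both NSN-CCs pools higher, as were 16% of all probes. Pgk1, the X-linked kinase of the first ATP-forming step, had 135 and 116 in NSN-CCs, against 170.1 and 83.6 in SN-CCs (ILMN_2797973). Its signal was near the limit in NSN-CCs and below it in SN-CCs replicate 2, and the log2 FC of Pgk1 was 0.11 (SE 0.40) and -0.44 without SN-CCs replicate 2.

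Aldoa, the aldolase of muscle and most other tissues, had 8285 and 7756 in NSN-CCs, against 10143 and 7550 in SN-CCs. The groups overlapped and the log2 FC of Aldoa was 0.12 (SE 0.22, interval -0.47 to 0.71). Pfkl, the liver-type phosphofructokinase, had 4125 and 3974 in NSN-CCs, against 5071 and 3853 in SN-CCs at its bright probe (ILMN_1236539), with overlap and a log2 FC of 0.06 (SE 0.19, interval -0.46 to 0.57). The dim Pfkl probe (ILMN_2871325) had 190 and 156 in NSN-CCs, against 146 and 157 in SN-CCs, with a log2 FC of -0.06 (SE 0.27). With median scaling of the arrays in place of quantile normalization, Aldoa and the bright Pfkl probe turned to -0.18 each and the dim Pfkl probe to 0.13, so no direction is given for them.

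Of the 14 probes that exceeded the limit on some array, NSN-CCs were lower at 5 and higher at 9. Their median log2 FC was 0.11, while NSN-CCs were lower at 56.0% of all probes and the median of all was -0.03. Of the 11 above the limit on all arrays NSN-CCs were lower at 5, against 62.5% of all probes so detected. Without SN-CCs replicate 2, 12 of the 14 probes were lower and 2 higher, with a median of -0.23. The share of all probes lower in that fit was not computed, so this count has no background beside it. The direction of most of the enzymes thus rested on that 1 pool, and Pgm1, Ldha, Tpi1 (2 probes) and Hk1 kept theirs without it. Values without that pool compare NSN-CCs with SN-CCs replicate 1 alone, on a scale normalized over all 4 arrays.

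**Figure D3:**
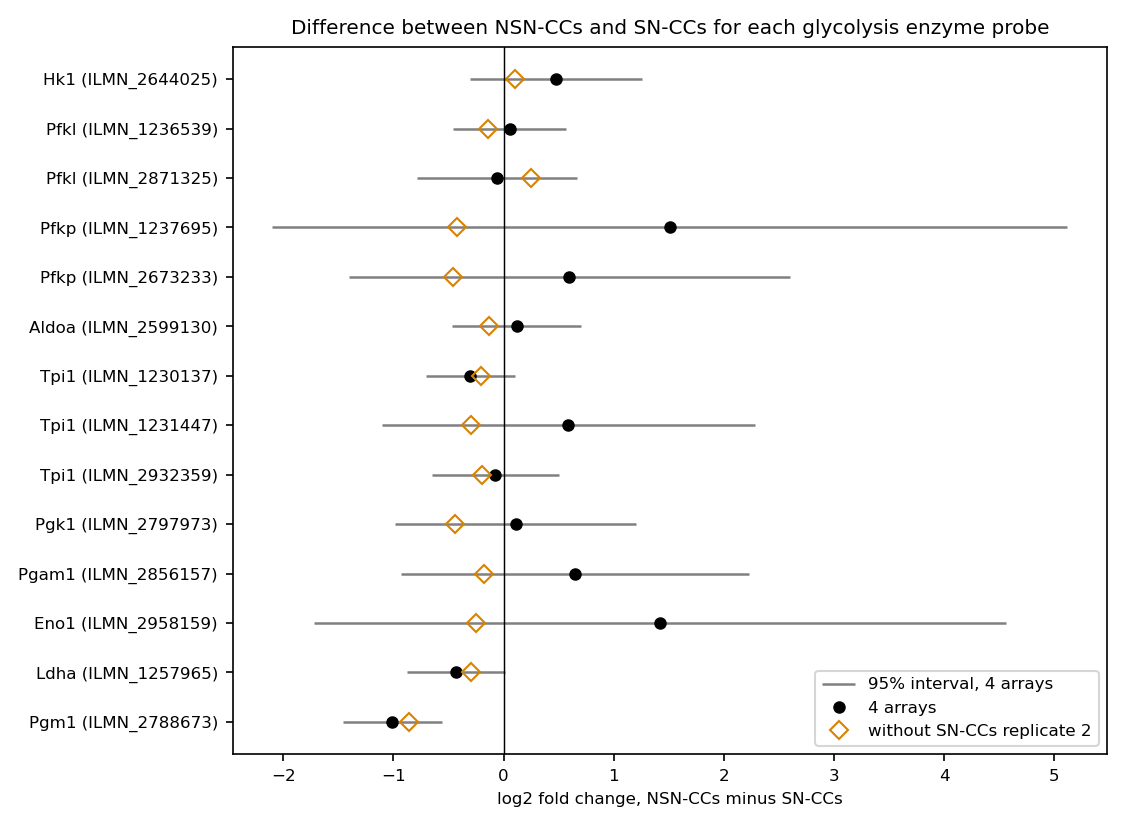
Log2 fold change, NSN-CCs minus SN-CCs, of each enzyme probe that exceeded the background limit on some array, with its 95% confidence interval from limma and, as a separate mark, the value without SN-CCs replicate 2. Only the interval of Pgm1 (-1.46 to -0.56) leaves out 0, and the marks of Pfkp, Eno1 and Pgam1 cross to the other side of 0 without that pool.

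The authors' own normalization changed the dim probes. In the normalized table each array was a straight line of its unnormalized signal, with an intercept of 136 and a slope of 0.762 in SN-CCs replicate 2, and with intercepts of 10.1 and 11.1 in NSN-CCs and 19.8 in SN-CCs replicate 1. The dim probe of Hk1 in this table had 183 and 191 in NSN-CCs, against 175 and 215 in SN-CCs, so the pool that was lowest before normalization was highest after it. On the normalized table the log2 FCs of Hk1, Pgk1 and the dim Tpi1 probe were -0.04, -0.39 and -0.09, opposite in sign to those given above, while Pgm1, Ldha and the brightest Tpi1 probe kept their sign.

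**Figure D4:**
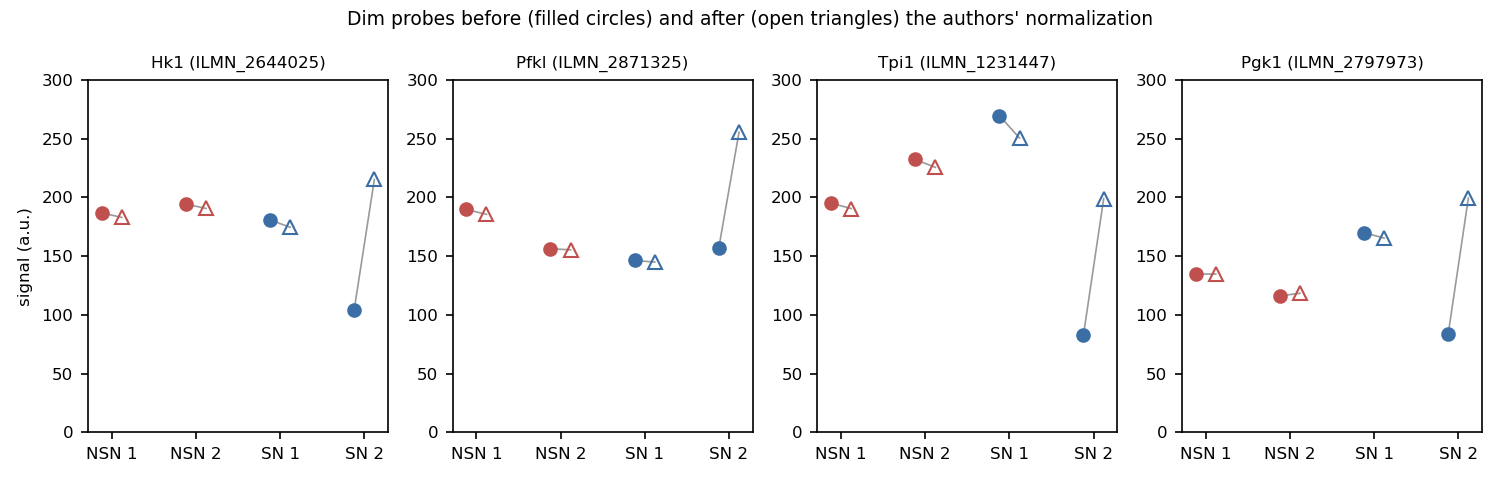
Signal (arbitrary units) of 4 dim enzyme probes on each array before (filled circles) and after (open triangles) the authors' normalization, NSN-CCs in red and SN-CCs in blue. The values of NSN-CCs and of SN-CCs replicate 1 barely moved, whereas those of SN-CCs replicate 2 became higher, for Hk1 215.

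Other genes of glucose metabolism, with hypoxia and MYC regulators and oocyte factors and receptors linked to it, were read from lists, each by its brightest probe. Of these 97 genes, 0 passed limma's adjusted test, 1 was lower in NSN-CCs at an unadjusted p under 0.05, the oocyte factor Bmp15, and 0 were higher. Among all probes, 2.02% were lower and 1.09% higher at that threshold, so the share among these genes was not above the background. NSN-CCs were lower for 54 and higher for 43, and the median was -0.03 (all probes -0.03). The list counts here and below include genes above the limit on no array, 22 of the 97. Among 17 other glycolysis enzymes, 12 were lower and 5 higher, with a median of -0.08. Of these 17, 6 were above the limit on no array, and Hk3, Gapdhs, Pgam2, Bpgm, Pklr and Ldhc were all counted as lower.

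Hk2, the insulin- and hypoxia-responsive hexokinase, had 3704 and 3708 in NSN-CCs, against 4922 and 6128 in SN-CCs, without overlap, and a log2 FC of -0.37 (SE 0.16, limma adjusted p 0.81). Pkm, the pyruvate kinase that makes pyruvate itself, had 15202 and 14044 in NSN-CCs, against 18902 and 10332 in SN-CCs, where the SN-CCs pools lay on both sides. Gapdh, named after its values were seen, had 27910 and 30322 in NSN-CCs, against 35025 and 28812 in SN-CCs, with overlap. Among the isozymes of the 10 enzymes was Pfkm, the muscle-type phosphofructokinase. Its brightest probe had 1713 and 1772 in NSN-CCs, against 1973 and 1960 in SN-CCs. On the normalized scale the groups overlapped, with a log2 FC of -0.08. A further Pfkm probe above the limit on all arrays (ILMN_3004553) had 634 and 618 in NSN-CCs, against 702 and 278 in SN-CCs. Its log2 FC was 0.34 (SE 0.30), and that of the dim Pfkm probe (ILMN_1252214) was 0.14 (SE 0.33). Among further isozymes above the limit on all arrays, the log2 FCs were -0.17 for Aldoc, -0.34 for Eno2, 0.05 for Eno3, -0.22 for Pgm2l1 and -0.26 for Pgm3. The muscle mutase Pgam2, the germ-cell dehydrogenase Ldhc and Hk3 were below the limit on all arrays.

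Of 14 genes of pyruvate entry into mitochondria, NSN-CCs were lower for 5 and higher for 9. Pdhb, a subunit of pyruvate dehydrogenase, had 1534 and 1137 in NSN-CCs, against 1418 and 191 in SN-CCs, another value that was low in SN-CCs replicate 2. Dld, the dihydrolipoamide dehydrogenase of the same complex, had 221 and 205 in NSN-CCs, against 259.99 and 265 in SN-CCs, without overlap, with a log2 FC of -0.55 (SE 0.26), and of -0.23 without SN-CCs replicate 2. Of 11 sugar and monocarboxylate transporters, 7 were lower and 4 higher. Slc2a1, the glucose carrier GLUT1, had 2352 and 2417 in NSN-CCs, against 2344 and 5519 in SN-CCs, with overlap and a log2 FC of -0.41 (SE 0.43).

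Of 16 genes of glycogen metabolism, 11 were lower and 5 higher. Pygb, the brain-type glycogen phosphorylase, had 2514 and 2448 in NSN-CCs, against 2465 and 1291 in SN-CCs, and Phka1, a subunit of its kinase, had a log2 FC of -0.24 (SE 0.14). The 5 regulators of phosphofructokinase were 4 lower and 1 higher, with Pfkfb2, which makes its activator, at 528 and 513 in NSN-CCs, against 612 and 854 in SN-CCs. The pentose phosphate pathway had 4 lower and 5 higher of 9, with G6pdx, its entry enzyme, at a log2 FC of 0.38 (SE 0.21) and H6pd at -0.29 (SE 0.31), and without SN-CCs replicate 2 at 0.15 for G6pdx and 0.12 for H6pd. Gluconeogenesis had 3 lower and 4 higher of 7, with G6pc2 at -0.44 (SE 0.22), and at -0.22 without SN-CCs replicate 2.

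Of 10 hypoxia and MYC regulators, 3 were lower and 7 higher, while NSN-CCs were lower at 56.0% of all probes. Among these 10, 3 had an SN-CCs replicate 2 signal at most 0.5 times that of replicate 1. Of all probes above the limit in SN-CCs replicate 1, 17.6% were so low in replicate 2. Epas1, a hypoxia-inducible factor, had 499 and 483 in NSN-CCs, against 582 and 127 in SN-CCs, and Vhl, which marks such factors for degradation, had a log2 FC of -0.34 (SE 0.26), and of -0.019 without SN-CCs replicate 2. Without that pool this list had 6 lower and 4 higher, and the share of all probes lower in that fit was not computed. Of 8 oocyte factors and receptors linked to cumulus glycolysis, 5 were lower and 3 higher. Bmp15, which the oocyte secretes, had 363 and 376 in NSN-CCs, against 558 and 498 in SN-CCs, without overlap, and a log2 FC of -0.70 (SE 0.17, limma adjusted p 0.81). The oocyte markers had the same sign, 15 of 16 of them being lower in NSN-CCs at a median of -0.19 over the list, and their part in the value of Bmp15 was not tested.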

How the data were processed

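Gene expression of the 4 pools was read on Illumina mouse-8 BeadChips. The authors deposited a table of intensities, the linear bead signals of 25697 probes with the background not subtracted and no scaling between arrays, and a second table of intensities after their normalization, for which background subtraction and the rank invariant algorithm are named (BeadStudio, version 3 by the submitters' processing notes). Detection p-values and negative control beads were in neither. The first was corrected with normexp over all probes (offset 50), quantile normalized and put on the log2 scale, and a model without covariates was fitted to all 4 arrays in R 4.3.3 with lmFit and eBayes of limma 3.58.1, contrasting NSN-CCs with SN-CCs, with Benjamini-Hochberg adjustment over 25697 probes. No dim probe was filtered out of the fit.

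The pools are separate samples by their titles, and no source links a given pool of NSN-CCs to a given pool of SN-CCs. By the paper, both types came from the same collection of ovaries over many experiments, with fewer NSN than SN complexes. The types may thus share animals and sessions. Same-numbered deviations from the group means correlated at 0.041 over all probes. With 2 pools of each type, that value cannot decide whether the replicate numbers pair them, and the main fit used no pairing. The number of arrays limits the precision. Probes were named through the annotation of the platform, updated to current symbols, where 23978 had 1 symbol and 1719 had none, and promoter sequences are those of RefSeq on GRCm38.p6. All probes of the 10 enzymes are named, with their isozymes (some are not reported here) and, in each further list, the higher and the lower gene of smallest p among those detected on every array. The members and lists were chosen with earlier results of these data known. The alternatives were no background correction, a normexp offset of 16, median scaling, a filter on dim probes, array weights, a trended and robust prior, the replicate number as a block, the authors' normalized table, and each array left out in turn. An array was left out of the fit only, after the normalization of all 4.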

Additional observations from a re-analysis of the deposited data

How the results depend on the processing

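With the authors' normalized table, 8 of 14 enzyme probes were lower in NSN-CCs, against 5 in the analysis reported, and 24 of all probes were called, none of them an enzyme probe. That table also turned the log2 fold changes of Hk1 to -0.044, of Pgk1 to -0.39 and of Tpi1 (ILMN_1231447) to -0.088, and median scaling turned those of Aldoa to -0.18 and of Pfkl to -0.18 (ILMN_1236539) and 0.13 (ILMN_2871325). The other settings that kept all arrays changed no direction or call of the enzymes, including the fit with the replicate number as a block, where 0 enzyme probes and 0 of all probes were called and 5 of 14 were lower. Leaving out each array in turn, the probes called were 0 to 9582 in all, 0 to 10 among the enzymes and 0 to 40 among the other pathway genes, and those lower in NSN-CCs were 4 to 12 enzyme probes and 49 to 55 other genes. The most probes were called with SN-CCs replicate 1 left out, where the remaining pool of SN-CCs is assumed to vary like the NSN-CCs pools. Leaving out SN-CCs replicate 2 instead gave the most enzyme probes and other genes lower in NSN-CCs, 12 and 55. The log2 fold changes that turned when an array was left out ranged from -0.13 to 0.37 for Aldoa, -0.38 to 0.043 for Aldoc, -0.25 to 3.10 for Eno1, -0.89 to 0.21 for Eno2, -0.10 to 0.20 for Eno3, -0.16 to 1.79 for Epas1, -0.71 to 0.12 for H6pd, -0.14 to 0.26 for Pfkl (ILMN_1236539), -0.37 to 0.25 for Pfkl (ILMN_2871325), -0.42 to 3.44 for Pfkp (ILMN_1237695), -0.46 to 1.66 for Pfkp (ILMN_2673233), -0.18 to 1.48 for Pgam1, -0.44 to 0.66 for Pgk1, -0.49 to 0.055 for Pgm2l1, -0.17 to 0.78 for Pkm, -1.01 to 0.18 for Slc2a1, -0.29 to 1.47 for Tpi1 (ILMN_1231447) and -0.29 to 0.14 for Tpi1 (ILMN_2932359). Without a change of sign, values that moved by over 1.5 times from the value of all arrays ranged from -0.87 to -0.23 for Dld, -0.67 to -0.22 for G6pc2, 0.15 to 0.61 for G6pdx, 0.11 to 0.85 for Hk1, -0.50 to -0.24 for Hk2, 0.055 to 2.47 for Pdhb, -1.01 to -0.14 for Pfkfb2, -0.15 to -0.012 for Pfkm, -0.44 to -0.072 for Pgm3, -0.32 to -0.16 for Phka1, 0.16 to 0.92 for Pygb and -0.66 to -0.019 for Vhl, and each came nearest to 0 without SN-CCs replicate 2. Those that moved less ranged from -0.57 to -0.29 for Ldha, -0.40 to -0.20 for Tpi1 (ILMN_1230137), -1.16 to -0.86 for Pgm1 and -0.86 to -0.54 for Bmp15. They too came nearest to 0 without SN-CCs replicate 2. Depth cannot be given for bead signals, and dim probes near the background limit carry little information.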

Other observations

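Low signals in SN-CCs replicate 2 were also seen outside the enzymes, in genes named after their values were seen. Hif1a, the oxygen-regulated factor that induces glycolysis enzymes, had 1289 and 1029 in NSN-CCs, against 1624 and 169 in SN-CCs, a log2 fold change of 1.04 with a standard error of 0.98. Inha, the inhibin subunit made by granulosa cells, had 45170 and 43879 in NSN-CCs, against 46056 and 3760 in SN-CCs, a log2 fold change of 1.86 with a standard error of 1.26. In both genes the signal before normalization was above the NSN-CCs pools in SN-CCs replicate 1 and below them in SN-CCs replicate 2. On the normalized scale both NSN-CCs pools of Inha were above both SN-CCs pools.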
